A study of Homo sapiens with 9 samples.

Results

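The genes described here are 10 members of the NF-kB system chosen by their known roles. They are the 5 subunits NFKB1, NFKB2, RELA, RELB and REL, and 5 genes that NF-kB induces and that in turn restrain the pathway or act in its upstream complexes, namely NFKBIA, NFKBIE, NFKBIZ, TNFAIP3 and BIRC3. All 10 were found among the 60199 gene symbols of the count table, and all 10 were among the 15717 genes with enough counts to be tested. The choice used no measured value, but it was made with earlier results from these data known.

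Poly-A RNA was sequenced from 9 cultures of human mammary epithelial cells, 3 for each of 3 lines. MCF10A-CT (CT) is the untreated parental MCF10A line, a nonmalignant breast epithelial line that carries a deletion of CDKN2A and an amplification of MYC, which the derived lines inherit. MC26 arose from unsorted MCF10A cells kept for a long time with BMP2 and IL6. M1B26 was obtained in the same way after a prior sort of the parental cells for BMPR1B, a receptor of BMP2, and per the study's methods it was expanded from 3 colonies picked from soft agar, so it represents few founder cells. Both transformed lines were still grown with BMP2 and IL6 at harvest, so lasting differences between lines and the effect of the factors in the medium cannot be told apart. The labels and the methods state different concentrations, and none is repeated here. Neither source gives preparation batches, so a batch that followed the line cannot be told apart from the line.

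NF-kB proteins are dimers of the 5 subunits. In resting cells the dimers are held in the cytoplasm by inhibitors of the IkB family. In the canonical route, ligands such as TNF and IL-1 activate a kinase complex of CHUK, IKBKB and IKBKG, which marks the inhibitors for destruction and frees dimers of RELA with p50, the product of NFKB1. In the noncanonical route, the kinase MAP3K14 drives the processing of the NFKB2 product to p52, the usual partner of RELB. Several inhibitor genes are themselves NF-kB targets and so form feedback loops. In mammary epithelium the pathway is known for its roles in inflammation, survival and ductal growth.

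Total counts ranged from 21425118 in CT replicate 2 to 80076597 in CT replicate 3. Levels are given as CPM, counts scaled by library size after normalisation with the trimmed mean of M values (TMM), whose factors ran from 0.968 to 1.07. In such bulk samples a smaller share of cells that express a gene and less RNA per cell cannot be told apart. All 8 epithelial markers checked (EPCAM, CDH1, KRT5, KRT14, KRT8, KRT18, TP63 and LAMB3) were well detected in every library, with summed levels of 7345 to 9105 CPM in CT, 8294 to 10412 in MC26 and 7154 to 7524 in M1B26. KRT5 made up most of these sums, and single markers moved with the lines. KRT14 was 20.2-fold higher than CT in MC26 and 10.1-fold higher in M1B26, and TP63 was 2.44-fold and 2.47-fold higher. CDH1 stood at 0.534 and 0.578 times its CT level, and EPCAM at 0.211 times in MC26 and 1.03 times in M1B26, the last of which did not pass the test. Their part in the results was not tested. Among 8 leukocyte markers, PTPRC, CD3E and MS4A1 stayed at or below 3 counts in every library, and the summed list reached 11.8 to 17.2 CPM in CT, 21.4 to 24.7 in MC26 and 39.2 to 53.3 in M1B26. The leukocyte list therefore moved with the lines, in the same direction as several genes below, and its part in the results was not tested. The 6 fibroblast markers summed to 37.4 to 37.8, 17.1 to 56.8 and 28.5 to 39.9 CPM and the 4 endothelial markers to 7.53 to 7.78, 1.02 to 1.39 and 2.84 to 4.91 CPM, in the same order of lines, with COL3A1, CDH5 and VWF at or below 3 counts throughout. Within the fibroblast list, COL1A1 was 1.98-fold higher in M1B26 than in CT, and LUM rose from 0.0715 to 0.131 CPM in CT to 4.38 to 6.20 in M1B26. DCN and PDGFRB of that list lay lower in M1B26 than in CT, without passing the test. DCN was at 28.6 to 29.9 CPM in CT, 5.45 to 47.3 in MC26 and 9.56 to 17.8 in M1B26. PDGFRB was at 0.655 to 0.815 CPM in CT and 0.406 to 0.564 in M1B26. PECAM1 of the endothelial list fell from 4.76 to 5.32 CPM in CT to at most 0.494 in MC26 and 1.68 in M1B26.

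The genes lie on 8 chromosomes, whose tested genes had median log2 fold changes between -0.07 and 0.09 in the 3 comparisons. A search of RefSeq promoter windows on GRCh38.p14, each running from 250 bases before to 50 bases after an annotated start, was made for the 10-base NF-kB consensus on both strands. Windows were found for 8 members, whereas RELB and NFKBIE had no entry. The consensus occurred in 9 of the 13 member windows, while 11.3% of all 35116 windows in the table held it. Counted by gene, 7 of the 8 members with a window held it, and no such share was computed over all genes. Both windows of RELA lacked the letters searched. These matches describe the sequence only, since no binding was measured. The match nearest to a start in each of the 7 members is given as 30 bases of the gene's own strand, with the matched letters in capitals, because the feedback described for these genes rests on such motifs.
NFKB1: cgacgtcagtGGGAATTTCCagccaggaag
NFKB2: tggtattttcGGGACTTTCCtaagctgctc
REL: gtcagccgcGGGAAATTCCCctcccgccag
NFKBIA: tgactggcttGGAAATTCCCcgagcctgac
NFKBIZ: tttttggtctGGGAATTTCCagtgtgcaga
TNFAIP3: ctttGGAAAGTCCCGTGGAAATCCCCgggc
BIRC3: tattaccgctGGAGTTCCCCtaagtcctaa

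The NFKB1 stretch lies at chr4:102501300-102501329, the NFKB2 stretch at chr10:102395674-102395703, the REL stretch at chr2:60881518-60881547, the NFKBIZ stretch at chr3:101827757-101827786, the TNFAIP3 stretch at chr6:137867188-137867217 and the BIRC3 stretch at chr11:102317339-102317368, all on the forward strand. The NFKBIA stretch lies at chr14:35404811-35404840 on the reverse strand. TNFAIP3 carried a pair of matches 2 bases apart, between 67 and 46 bases before the start. The capitals of REL hold 2 overlapping matches, 1 read on each strand. NFKB2 had the most matches, with 4 in the second of its 3 windows and 3 in the third, counting overlapping matches and both strands.

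In both transformed lines TNFAIP3, NFKBIZ and RELB were at least 2-fold above CT, NFKB2 and RELA were modestly above it, and NFKB1 passed the test in no comparison. NFKBIA and NFKBIE were above CT in M1B26 and did not pass the test in MC26. BIRC3 was the member that fell, and only MC26 against CT passed the test for it. Genes with an adjusted p under 0.05 in edgeR's quasi-likelihood test over all tested genes were called changed. By that rule 6 of 10 members changed in MC26 against CT, 5 higher and 1 lower, where 38.7% of all tested genes changed, 18.8% higher and 19.9% lower. In M1B26 against CT 7 of 10 changed, all of them higher, against 48.9% of tested genes changed, 25.2% higher and 23.7% lower. In M1B26 against MC26 4 of 10 changed, all higher, which is close to the 39.5% of tested genes changed and compares with 21.2% higher. The median log2 fold change of the members was 0.29, 0.40 and 0.21 in the order of these comparisons, and that of all tested genes was 0.00 in each. The libraries of 2 lines did not overlap for 8, 7 and 4 of the 10 members, where 50.3%, 59.0% and 53.5% of all tested genes did not overlap. The share of non-overlapping members in M1B26 against CT was therefore near the background. The first 2 comparisons share the CT libraries and are not independent of each other.

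**Figure D1:**
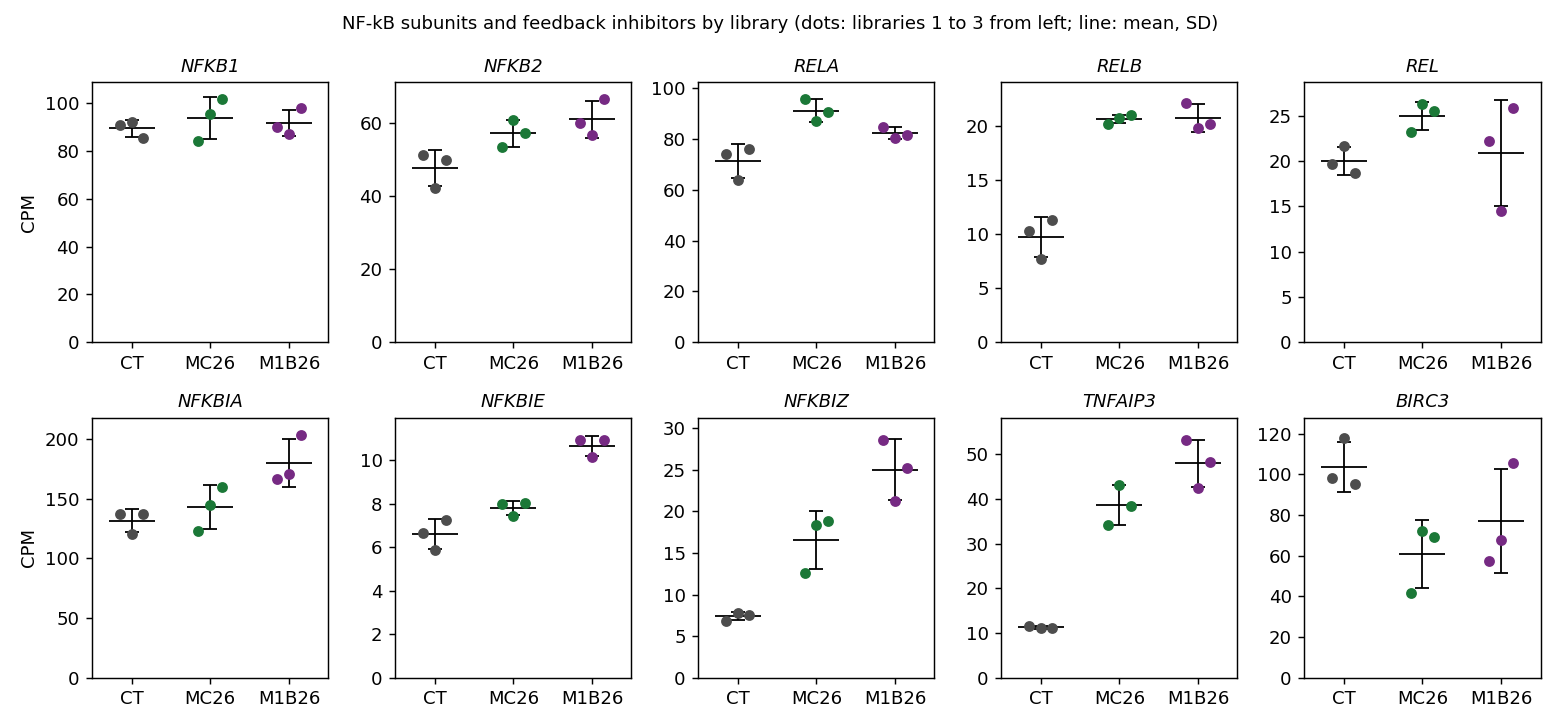
Level of each member in CPM (vertical axis, from 0) in the 3 libraries of CT, MC26 and M1B26, with the mean and SD of each line. TNFAIP3, NFKBIZ and RELB stand higher in all 6 libraries of the transformed lines than in CT, NFKB1 overlaps throughout, and the BIRC3 and REL libraries of M1B26 are widely spread.

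The canonical subunit gene NFKB1 (chr4:102501330-102617302) encodes p105, the precursor of p50. Its levels were 91.1, 92.2 and 85.5 CPM in the CT libraries, 84.3, 95.4 and 102 in MC26 and 90.2, 87.1 and 97.9 in M1B26. The 3 lines overlapped, and the highest library exceeded the lowest by only 1.21-fold, the narrowest range of the 10 members. Its log2 fold changes were 0.07 ± 0.08 (SE) in MC26 and 0.03 ± 0.08 in M1B26 against CT, with edgeR adjusted p of 0.537 and 0.745. A direction cannot be given for NFKB1, because both values fell just below 0 when libraries were scaled by total counts alone.

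RELA (chr11:65653599-65663090, reverse strand) encodes p65, the main transactivating subunit of the canonical route. CT libraries held 74.1, 63.8 and 76.1 CPM, MC26 libraries 95.9, 86.9 and 90.8 and M1B26 libraries 84.9, 80.5 and 81.7. Every library of both transformed lines was above every CT library, and every MC26 library was above every M1B26 library. RELA was 1.28-fold higher in MC26, a log2 fold change of 0.35 ± 0.08 with an edgeR adjusted p of 0.00416. The 1.15-fold difference in M1B26 passed the test narrowly, with a log2 fold change of 0.21 ± 0.08 and an edgeR adjusted p of 0.0433. That call was lost in 4 of 7 other settings. It was also lost without CT replicate 1, CT replicate 2, MC26 replicate 2, MC26 replicate 3 or any of the 3 M1B26 libraries, with values from 0.13 (without CT replicate 2, adjusted p = 0.0988) to 0.23. RELA in M1B26 against MC26 gave -0.15 ± 0.08 with an edgeR adjusted p of 0.148, and passed the test only in the fit without CT replicate 2 (adjusted p = 0.0374). The noncoding gene RELA-DT overlaps RELA on the opposite strand, and the counting is not stated to use strand.

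REL (chr2:60881491-60931612) encodes c-Rel, best known from lymphocytes. It was measured at 19.6, 21.7 and 18.7 CPM in CT, at 23.3, 26.3 and 25.5 in MC26 and at 22.3, 14.5 and 25.9 in M1B26. The MC26 libraries all lay above CT, whereas the M1B26 libraries overlapped both other lines, with replicate 2 the lowest of all 9. In MC26 the log2 fold change of 0.33 ± 0.17 did not pass the test (edgeR adjusted p = 0.144). It passed without M1B26 replicate 2 (0.33, adjusted p = 0.0192), with no filter on low counts and with only the 6 libraries compared. M1B26 stood at 0.07 ± 0.17 relative to CT (edgeR adjusted p = 0.749), and the sign of this value changed with scaling by total counts. REL overlaps RNU4-51P and the noncoding gene ENSG00000267520 on the same strand.

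Of the noncanonical pair, NFKB2 (chr10:102394110-102402524) encodes p100, the precursor of p52. Levels were 51.4, 42.2 and 49.9 CPM in CT, 53.5, 61.0 and 57.3 in MC26 and 60.0, 56.7 and 66.6 in M1B26. All 6 transformed libraries exceeded all 3 CT libraries, and the transformed lines overlapped each other. NFKB2 was 1.27-fold higher in M1B26 (log2 fold change 0.35 ± 0.09, edgeR adjusted p = 0.00854). The 1.19-fold difference in MC26 stood close to the threshold (0.25 ± 0.09, edgeR adjusted p = 0.0464). It lost the call in 4 of 7 other settings. It also lost it without CT replicate 2 (0.18, adjusted p = 0.104), CT replicate 3, MC26 replicate 2, MC26 replicate 3, M1B26 replicate 1 or M1B26 replicate 2, where the other values lay between 0.21 and 0.29.

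RELB (chr19:45001461-45038192) encodes the transactivating partner of p52. It was at 10.3, 7.73 and 11.3 CPM in CT, at 20.2, 20.7 and 20.99 in MC26 and at 22.2, 19.8 and 20.2 in M1B26. The lowest transformed library stood well above the highest CT library, and MC26 and M1B26 covered the same levels. The increase was 2.08-fold in MC26 (log2 fold change 1.06 ± 0.12, edgeR adjusted p = 5.85e-05) and 2.09-fold in M1B26 (1.06 ± 0.12, adjusted p = 3.64e-05). Both calls held under every alternative tried, including all 9 fits that left out a library. The direct comparison of M1B26 with MC26 gave a log2 fold change of 0.01 ± 0.11 (edgeR adjusted p = 0.969).

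**Figure D2:**
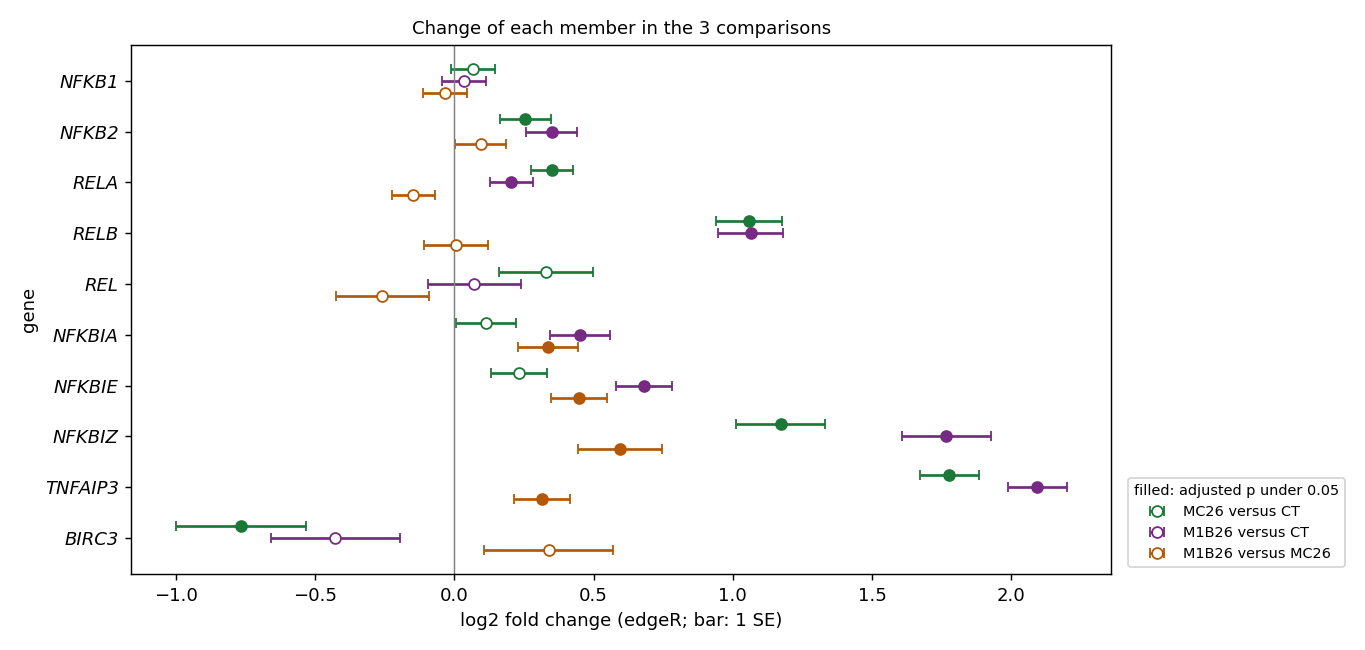
Log2 fold change (horizontal axis) of each member in the 2 comparisons with CT and between the transformed lines, from edgeR, with bars of 1 SE and filled points for an adjusted p under 0.05. The largest differences from CT are those of TNFAIP3 (1.78 in MC26 and 2.09 in M1B26), and BIRC3 lies on the negative side in both comparisons with CT.

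Among the IkB-type genes, NFKBIA (chr14:35401079-35404749, reverse strand) encodes IkB-alpha, the classical inhibitor that is resynthesised after NF-kB activation and exports dimers from the nucleus. The CT libraries gave 137, 120.3 and 137 CPM, the MC26 libraries 123, 145 and 159.9 and the M1B26 libraries 166, 171 and 203. M1B26 lay above all other libraries, while MC26 and CT overlapped. NFKBIA was 1.37-fold higher in M1B26 than in CT, a log2 fold change of 0.45 ± 0.11 with an edgeR adjusted p of 0.00524. The MC26 value was 0.12 ± 0.11 relative to CT (edgeR adjusted p = 0.427). M1B26 exceeded MC26 by 0.34 ± 0.11 (edgeR adjusted p = 0.0288), but this call was lost without MC26 replicate 1 (0.24, adjusted p = 0.104), without MC26 replicate 2 (0.35, adjusted p = 0.0696) and without M1B26 replicate 3 (0.24, adjusted p = 0.114).

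NFKBIE (chr6:44258166-44265788, reverse strand) encodes IkB-epsilon, another inducible cytoplasmic inhibitor. Its levels were low, at 6.67, 5.90 and 7.26 CPM in CT, 8.01, 7.45 and 8.02 in MC26 and 10.9, 10.2 and 11.0 in M1B26. The lines did not overlap, in the order CT, MC26, M1B26. NFKBIE was 1.60-fold higher in M1B26 than in CT (log2 fold change 0.68 ± 0.10, edgeR adjusted p = 2.49e-04) and 1.36-fold higher than in MC26 (0.45 ± 0.10, adjusted p = 0.00495). Neither of these calls was lost under any alternative. MC26 against CT gave 0.23 ± 0.10 and did not pass the test (edgeR adjusted p = 0.0922).

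NFKBIZ (chr3:101827991-101861022) encodes IkB-zeta, a nuclear cofactor that binds p50 and helps to induce a second wave of targets, among them IL6 in other cells. It was at 6.85, 7.82 and 7.50 CPM in CT, at 12.5, 18.4 and 18.8 in MC26 and at 28.6, 21.3 and 25.2 in M1B26. No 2 lines overlapped, and MC26 replicate 1 was the lowest transformed library. The rise over CT was 2.25-fold in MC26 (log2 fold change 1.17 ± 0.16, edgeR adjusted p = 2.37e-04) and 3.40-fold in M1B26 (1.77 ± 0.16, adjusted p = 8.76e-06). M1B26 was 1.51-fold above MC26 (0.59 ± 0.15, edgeR adjusted p = 0.0102), and all 3 calls held whichever library was left out. The gene NXPE3 overlaps NFKBIZ on the same strand.

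TNFAIP3 (chr6:137867214-137883314) encodes A20, a ubiquitin-editing enzyme that shuts off signalling upstream of the kinase complex. It rose the most of the 10 members. CT libraries were tightly grouped at 11.6, 11.1 and 11.0 CPM, MC26 libraries reached 34.1, 43.0 and 38.5 and M1B26 libraries 53.1, 42.5 and 48.3. Every transformed library was far above CT, and the MC26 and M1B26 ranges overlapped slightly. The increase was 3.43-fold in MC26 (log2 fold change 1.78 ± 0.11, edgeR adjusted p = 1.00e-06) and 4.27-fold in M1B26 (2.09 ± 0.11, adjusted p = 2.07e-07). M1B26 exceeded MC26 by 0.32 ± 0.10 (edgeR adjusted p = 0.0272), a call that was lost without MC26 replicate 1 (0.24, adjusted p = 0.0990), MC26 replicate 3 (0.32, adjusted p = 0.0522), M1B26 replicate 1 (0.24, adjusted p = 0.109) or M1B26 replicate 3 (0.31, adjusted p = 0.0660). The noncoding gene WAKMAR2 overlaps TNFAIP3 on the opposite strand.

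BIRC3 (chr11:102317484-102339403) encodes cIAP2, a ubiquitin ligase of the TNF receptor complexes that is induced by NF-kB and, with BIRC2, promotes turnover of MAP3K14. Its levels were 98.2, 118 and 95.4 CPM in CT, 41.8, 71.9 and 69.2 in MC26 and 57.5, 68.0 and 106 in M1B26. All MC26 libraries lay below CT, whereas M1B26 replicate 3 fell among the CT libraries. The MC26 level was 0.588 times that of CT, a log2 fold change of -0.77 ± 0.23 with an edgeR adjusted p of 0.0230. This call was lost without CT replicate 2 (-0.66, adjusted p = 0.0738) or without MC26 replicate 1 (-0.55, adjusted p = 0.0743). In M1B26 the value was -0.43 ± 0.23 (edgeR adjusted p = 0.149), and it passed the test without M1B26 replicate 3 (-0.72, adjusted p = 0.0172). The difference between M1B26 and MC26 was 0.34 ± 0.23 (edgeR adjusted p = 0.268). With no filter on low counts both of these comparisons passed, with adjusted p of 0.0038 and 0.0198. BIRC3 shares its position with the noncoding gene ENSG00000288528 on the opposite strand.

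Levels of different members were compared per length, as CPM per kilobase of the longest GENCODE transcript. NFKBIA was the highest in all 3 lines and REL the lowest, at 51.4 ± 3.85 (SD, n = 3) and 1.78 ± 0.135 CPM per kilobase in CT. Over 13830 tested genes with a length, the mean of NFKBIA stood at percentile 92.8 and that of REL at percentile 29.4. The CT order between them was RELA (22.4), BIRC3 (15.1), NFKB2 (14.0), NFKB1 (12.7), RELB (4.33), NFKBIE (2.56), TNFAIP3 (2.07) and NFKBIZ (1.88). In that order BIRC3 and NFKB2, NFKB2 and NFKB1, and NFKBIZ and REL were not separated by the spread of their libraries.

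The order differed in the transformed lines. In M1B26, NFKBIA (70.4 CPM per kilobase) and RELA (25.9) were followed by NFKB2 (17.9), NFKB1 (13.0), BIRC3 (11.2), RELB (9.19), TNFAIP3 (8.82), NFKBIZ (6.38), NFKBIE (4.14) and REL (1.86). BIRC3 overlapped NFKB1, RELB and TNFAIP3 there, and RELB overlapped TNFAIP3. In MC26 the order from the top was NFKBIA (55.8), RELA (28.7), NFKB2 (16.8), NFKB1 (13.3), RELB (9.14), BIRC3 (8.87), TNFAIP3 (7.09), NFKBIZ (4.22), NFKBIE (3.03) and REL (2.22), with BIRC3 overlapping RELB and TNFAIP3. NFKBIE, which encodes a cytoplasmic IkB protein, stood above NFKBIZ, which encodes a nuclear one, in CT, and below it in M1B26. With the union of all exons as length, NFKBIA and REL kept their places at the ends, while BIRC3 moved above RELA in CT. In MC26 BIRC3 and RELB then stood above NFKB1, BIRC3 stood above RELB, and NFKBIE stood above NFKBIZ. In M1B26 BIRC3, TNFAIP3 and RELB all stood above NFKB1, and TNFAIP3 stood above RELB. By that length BIRC3 overlapped RELA in CT and both NFKB1 and RELB in MC26. TNFAIP3 overlapped RELB in M1B26, and NFKBIE overlapped NFKBIZ in MC26 and M1B26.

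Ratios of counts within a library do not depend on how libraries are scaled. RELB was present at 0.139, 0.121 and 0.149 counts per count of RELA in CT, at 0.211, 0.238 and 0.231 in MC26 and at 0.261, 0.246 and 0.247 in M1B26. The 3 lines did not overlap, and the geometric mean ratio was 1.67-fold that of CT in MC26 and 1.85-fold in M1B26. The NFKB2 to NFKB1 ratio was 0.564, 0.458 and 0.583 in CT, 0.634, 0.639 and 0.563 in MC26 and 0.666, 0.651 and 0.680 in M1B26. Here M1B26 was separate from the other lines, and MC26 overlapped CT.

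NFKBIA exceeded RELA in counts in every library. There were 1.86, 1.89 and 1.80 counts of NFKBIA per count of RELA in CT, 1.29, 1.67 and 1.76 in MC26 and 1.96, 2.12 and 2.49 in M1B26. The ratio was lower in MC26 and higher in M1B26 than in CT, in every library of each line, and M1B26 stood 1.40-fold above MC26. Each ratio was compared between each pair of lines by a 2-sided exact permutation test of 3 libraries against 3, which cannot go below p = 0.1. The exact p was 0.1 in 8 of the 9 tests (0.1125 after Benjamini-Hochberg adjustment over the 9) and 0.3 for NFKB2 to NFKB1 in MC26 against CT, so none passed a threshold of 0.05.

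**Figure D3:**
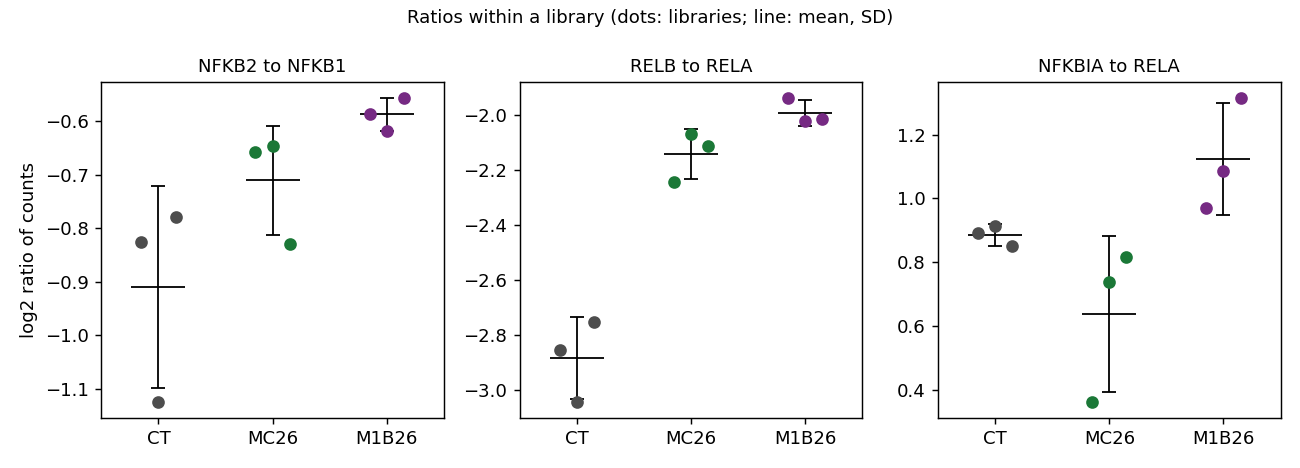
Log2 ratio of counts (vertical axis) of NFKB2 to NFKB1, RELB to RELA and NFKBIA to RELA in each library, with the mean and SD of each line. The RELB to RELA ratio lies higher in all transformed libraries, and the NFKBIA to RELA ratio of MC26 is below CT while that of M1B26 is above it.

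Over the 9 libraries, log2 CPM of NFKBIZ and TNFAIP3 followed each other most closely among the members (Pearson r = 0.9642), then RELB and TNFAIP3 (r = 0.9572). The most opposed pair was RELA and BIRC3 (r = -0.8308). These coefficients are descriptions over 9 libraries that fall into 3 lines, so they mostly reflect the differences between lines. The genes most like each member were found by the same measure among tested genes whose mean reached 5 CPM. For TNFAIP3, the member with the widest range (4.80-fold from lowest to highest library), they included GRAMD1B (r = 0.9956) and SLC2A9 (0.9913). For NFKBIZ, which ranged over 4.16-fold, they were GCH1 (r = 0.9905), SAMSN1 (0.9786) and ICAM1 (0.9785), the last an adhesion molecule and known NF-kB target. RELB was matched most closely by SRA1 (r = 0.9949), RTEL1-TNFRSF6B (0.9913), a readthrough entry that shares reads with both of its parent genes, and JUNB (0.9885).

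CT replicate 2, the shallowest library, was the lowest CT library for NFKB2, RELA, RELB, NFKBIA and NFKBIE, the highest for NFKB1, REL, NFKBIZ and BIRC3, and the middle one for TNFAIP3. The calls that were lost without it were those of NFKB2 and BIRC3 in MC26 and of RELA in M1B26, each given above. All other called members kept their call without it.

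Further genes of the pathway were taken from lists of 10 ligands, 12 receptors, 18 adaptors, 7 kinases, 11 other inhibitors and 25 target genes. Of these 83 genes 70 were tested. In MC26 against CT 33 were higher and 7 lower, in M1B26 against CT 33 were higher and 10 lower, and in M1B26 against MC26 21 were higher and 12 lower. As shares of the tested pathway genes these changes came to 57.1%, 61.4% and 47.1%, beside 38.7%, 48.9% and 39.5% of all tested genes.

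Among the tested ligands, the IL-1 genes had the largest differences from CT in both transformed lines. TNF had at most 3 counts in any library and was not tested. IL1A was at 30.5, 35.4 and 27.5 CPM in CT, at 163, 156 and 109 in MC26 and at 265, 227 and 267 in M1B26. IL1B was at 15.5, 14.3 and 13.7 CPM in CT, at 94.7, 115 and 75.2 in MC26 and at 248, 202 and 305 in M1B26. For both genes every MC26 library exceeded CT and every M1B26 library exceeded MC26. The log2 fold changes of IL1A against CT were 2.21 ± 0.15 in MC26 and 3.03 ± 0.15 in M1B26, with edgeR adjusted p of 2.11e-06 and 2.07e-07. Those of IL1B were 2.71 ± 0.18 and 4.12 ± 0.18, with edgeR adjusted p of 1.54e-06 and 1.06e-07. TNFSF12, which encodes TWEAK, rose only in M1B26 among the comparisons with CT (0.95 ± 0.11, edgeR adjusted p = 5.46e-05). It lies on chromosome 17, whose 843 tested genes had a median log2 fold change of 0.48 in M1B26 and 0.00 in MC26 against CT. No member lies on that chromosome. Of the 5 ligands tested, 2 were higher in MC26 and 3 in M1B26 than in CT, and none was lower. These shares were 40.0% and 60.0%, beside 38.7% and 48.9% of all tested genes changed. The MC26 share was near the background, and with only 5 genes tested the M1B26 share cannot be set apart from it.

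Of 10 receptors tested, 6 were higher and 1 lower in MC26 and 6 were higher and 3 lower in M1B26. Among all tested genes 18.8% were higher and 19.9% lower in MC26, and 25.2% were higher and 23.7% lower in M1B26. With only 10 receptors tested, the 3 that were lower in M1B26 cannot be set apart from that background. IL1RAP, the accessory chain of the IL-1 receptor, rose by 1.23 ± 0.09 on the log2 scale in MC26 and by 0.93 ± 0.09 in M1B26 (edgeR adjusted p = 3.27e-06 and 1.47e-05). IL1R1, the ligand-binding chain, was at 23.5, 26.3 and 23.2 CPM in CT, at 30.5, 31.2 and 29.6 in MC26 and at 11.6, 11.6 and 11.9 in M1B26. It thus moved in opposite directions in the transformed lines, with log2 fold changes of 0.33 ± 0.07 and -1.05 ± 0.07 (edgeR adjusted p = 0.00478 and 1.84e-06). TLR4, the receptor for lipopolysaccharide, rose from 0.815 to 1.31 CPM in CT to 2.88 to 4.19 in MC26 and 6.79 to 9.55 in M1B26. TNFRSF1A, the main TNF receptor of epithelium, was higher in both lines (0.56 ± 0.08 and 0.63 ± 0.08, edgeR adjusted p = 2.91e-04 and 8.02e-05).

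Adaptors and kinases carry the signal from receptors to the subunits. In MC26 10 of 17 tested adaptors were higher and 1 lower (64.7% changed, beside 38.7% of all tested genes). In M1B26 4 were higher and 1 lower, and this share of 29.4% was below the 48.9% of all tested genes. Of 7 kinase genes 1 was higher and 2 lower in MC26, and 1 was higher and 1 lower in M1B26, shares of 42.9% and 28.6%. BIRC2, the closest relative of BIRC3, was higher in MC26 (45.8, 52.8 and 42.2 CPM in CT, 91.0, 74.1 and 55.4 in MC26), with a log2 fold change of 0.65 ± 0.15 and an edgeR adjusted p of 0.00613, whereas BIRC3 was lower there. In M1B26 BIRC2 gave 0.17 ± 0.15 (edgeR adjusted p = 0.381). The 2 genes are neighbours on chromosome 11 and similar in sequence, and the sources do not state how reads shared by both entered the deposited counts.

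Of the kinase complex genes, CHUK gave 0.12 ± 0.08 and 0.06 ± 0.08 against CT and passed in neither comparison (edgeR adjusted p = 0.253 and 0.533). In MC26 it passed only without CT replicate 2 (0.19, adjusted p = 0.043). IKBKB gave -0.06 ± 0.08 in MC26 (edgeR adjusted p = 0.558) and -0.21 ± 0.08 in M1B26 (edgeR adjusted p = 0.0394), the latter lost without CT replicate 1, CT replicate 3, MC26 replicate 2, M1B26 replicate 1 or M1B26 replicate 3, with values from -0.23 to -0.17, and also with no filter on low counts (-0.20, adjusted p = 0.0870). IKBKG, which has a near-identical pseudogene on the X chromosome, was at 36.1, 33.2 and 42.7 CPM in CT, at 65.4, 57.9 and 38.7 in MC26 and at 42.0, 40.2 and 34.1 in M1B26. The MC26 libraries of IKBKG overlapped CT, and its call there (0.53 ± 0.17, edgeR adjusted p = 0.0288) was lost without CT replicate 1, CT replicate 2, MC26 replicate 1 or MC26 replicate 2 (0.37 to 0.51) and with only the 6 libraries compared (0.52, adjusted p = 0.0525), so its values are uncertain. MAP3K14, the noncanonical kinase, was lower in MC26 (-0.39 ± 0.09, edgeR adjusted p = 0.00845). It gave -0.03 ± 0.09 in M1B26 (adjusted p = 0.823), where its chromosome, 17, had the median of 0.48. IKBKE, a related kinase, rose by 0.48 ± 0.10 in M1B26 (edgeR adjusted p = 0.00194), against 0.19 ± 0.10 in MC26 (adjusted p = 0.135).

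**Figure D4:**
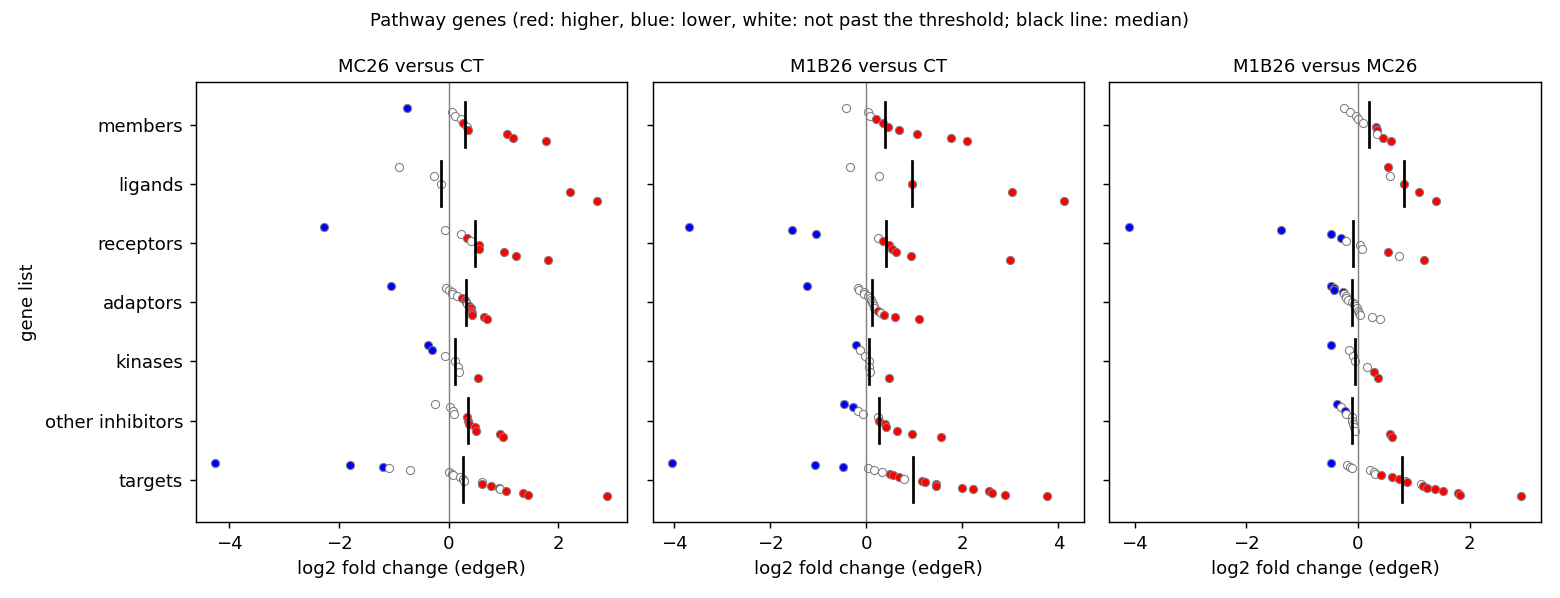
Log2 fold change (horizontal axis) of the members and of each tested pathway gene by list in the 3 comparisons, with red and blue points for genes called higher and lower and a black line at each list's median. The median of the targets is 0.27 in MC26 and 0.97 in M1B26 against CT, and that of the kinases is 0.12 and 0.05.

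Of 11 other inhibitors of the pathway, 7 were higher and none lower in MC26 against CT, where 18.8% of all tested genes were higher and 19.9% lower. In M1B26 against CT 6 were higher and 2 lower, beside 25.2% and 23.7% of all tested genes. In M1B26 against MC26 2 were higher and 2 lower, with a median log2 fold change of -0.11. That share of 36.4% was near the 39.5% of all tested genes changed. ZC3H12A, which encodes the RNase regnase-1, was at 53.5, 46.0 and 49.4 CPM in CT, at 71.0, 109 and 118 in MC26 and at 146, 125 and 169.6 in M1B26. TNIP1, which encodes a partner of A20, was at 254, 216 and 259 CPM in CT, at 243, 345 and 338 in MC26 and at 493, 436 and 476 in M1B26. In M1B26 both were clear of CT, with log2 fold changes of 1.56 ± 0.17 and 0.95 ± 0.13 (edgeR adjusted p = 3.27e-05 and 1.29e-04). The deubiquitinases CYLD (-0.46 ± 0.10, edgeR adjusted p = 0.00285) and OTUD7B (-0.28 ± 0.07, adjusted p = 0.00855) were the 2 that fell there. BCL3, a nuclear IkB protein, and NFKBIB, which encodes IkB-beta, rose in MC26 by 0.94 ± 0.21 and 0.51 ± 0.11 on the log2 scale (edgeR adjusted p = 0.00458 and 0.00496). Both were also higher in M1B26 than in CT (0.64 ± 0.21 and 0.40 ± 0.11, edgeR adjusted p = 0.0238 and 0.0128). The BCL3 call in M1B26 was lost without CT replicate 2 (0.46, adjusted p = 0.0728) or M1B26 replicate 1 (0.54, adjusted p = 0.0905).

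Of 20 tested target genes, 7 were higher and 3 lower in MC26 against CT, 13 were higher and 3 lower in M1B26 against CT, and 11 were higher and 1 lower in M1B26 against MC26. Of all tested genes, 18.8% were higher and 19.9% lower in MC26 against CT, and 25.2% and 23.7% in M1B26 against CT. In M1B26 against MC26 21.2% of all tested genes were higher and 18.4% lower. The share of targets called higher was above this background in each comparison, whereas the share called lower was below it. The median log2 fold changes of the targets were 0.27, 0.97 and 0.79. The chemokine genes CXCL1 and CXCL8, which attract neutrophils, rose in steps over the lines. CXCL1 was at 29.2, 31.6 and 29.5 CPM in CT, at 38.6, 66.2 and 81.9 in MC26 and at 221, 204 and 239 in M1B26. CXCL8 was at 3.93, 4.67 and 3.88 CPM in CT, at 5.05, 7.40 and 8.45 in MC26 and at 21.7, 24.6 and 26.004 in M1B26. No 2 lines overlapped for either gene.

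Some known targets went the other way. TNFAIP2 was at 123, 109.5 and 126 CPM in CT, at 25.1, 39.6 and 37.8 in MC26 and at 52.5, 48.5 and 69.5 in M1B26, log2 fold changes of -1.81 ± 0.17 and -1.07 ± 0.17 (edgeR adjusted p = 1.95e-05 and 3.79e-04). IL6 mRNA, from 1.62 to 2.05 CPM in CT, stood at 0.0249 to 0.157 CPM in MC26 and at 0.0710 to 0.135 in M1B26, which is 1 to 6 counts per library in lines that receive IL6 protein in their medium. CFLAR, an inhibitor of caspase 8, was lower in M1B26 (-0.48 ± 0.07, edgeR adjusted p = 3.69e-04), beside 0.01 ± 0.07 in MC26 (adjusted p = 0.946).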

How the data were processed

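Raw counts of 9 poly-A RNA libraries, listed by gene symbol, were used as deposited. Per the submitters' processing notes the authors used STAR 2.7.3a and Salmon 1.1.0 on GRCh38. The methods describe Salmon quantification of protein-coding genes, whereas the table holds whole numbers and noncoding genes. Whether it comes from that step, and the use of strand, are not given in the sources used here. Groups came from the sample titles. The series design text calls the cultures independent, and whether separate clones were used is not given, so p-values measure the spread between these libraries.

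After filtering with filterByExpr of edgeR 4.0.16 (R 4.3.3, minimum count 10), 15717 genes remained. Library sizes were adjusted by TMM factors, and a quasi-likelihood model of the 3 lines was fitted to all 9 libraries and tested 2-sided, with Benjamini-Hochberg adjustment over all tested genes. The biological coefficient of variation was 10.4%. Standard errors include the spread between libraries, and the detection floor (3 counts per library) covers counting error only. Positions and lengths came from GENCODE v44 (GRCh38) and promoter windows from RefSeq. The procedure was tested on simulated data. Ratios were tested by exact permutation (scipy 1.17.1).

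Members and lists were chosen with earlier results of these data known. The 10 members, CHUK, IKBKB, IKBKG, MAP3K14, TNF, IL1A, IL1B and BIRC2 were named whatever their values. Other pathway genes could be named when among the 3 highest or 3 lowest called in their list, and similar genes when among the 3 best correlated with the members of widest range. Some genes that met these rules are not reported here. The settings tried were RLE factors, total counts, DESeq2 1.42.0, the removal of the filter, a stricter filter (mean of 50 counts or more), the 6 libraries compared, a replicate block, an adjusted p under 0.01, and leaving out each library.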

Additional observations from a re-analysis of the deposited data

Results flagged for a closer look

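M1B26 was compared directly with MC26, which tests whether the 2 transformed lines differ, and the genes named in the report or allowed by its naming rule that passed (edgeR adjusted p under 0.05) are listed with their log2 fold change. Groups of 3 libraries are too small for a test of single outlying libraries. Among the members these were NFKBIA (0.34), NFKBIE (0.45), NFKBIZ (0.59) and TNFAIP3 (0.32), all higher in M1B26, and those of NFKBIA and TNFAIP3 did not hold when certain libraries were left out, as given in the report.

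Higher in M1B26 were also the ligands IL1A (0.83), IL1B (1.41) and TNFSF12 (1.09), the receptors TLR4 (1.18) and TNFRSF11A (0.54), the kinases MAP3K14 (0.36) and IKBKE (0.28), the inhibitors TNIP1 (0.60) and ZC3H12A (0.57), and the chemokines CXCL1 (1.83), CXCL8 (1.79) and CCL2 (2.92). TNFSF12, MAP3K14 and CCL2 lie on chromosome 17, whose tested genes had a median of 0.48 in this comparison. CCL2 had 6, 3 and 13 counts in the MC26 libraries against 62, 48 and 87 in M1B26, so the size of its difference is uncertain. Lower in M1B26 were the receptors IL1R1 (-1.37) and TNFRSF12A (-0.48), the adaptors BIRC2 (-0.48), IRAK1 (-0.43) and RIPK1 (-0.42), IKBKG (-0.48), the inhibitors OTUD7B (-0.37) and TAX1BP1 (-0.24) and the target CFLAR (-0.49). CD40 was fitted at -4.10, but it had 2, 3 and 1 counts in the M1B26 libraries against 33, 30 and 31 in MC26. That value rests on few counts, and its size is uncertain. Some of these calls were lost when 1 library was left out. That of MAP3K14 was lost without MC26 replicate 2 (0.33) and that of ZC3H12A without M1B26 replicate 3 (0.45). BIRC2 was lost without MC26 replicate 1 (-0.30), MC26 replicate 2, M1B26 replicate 1 or M1B26 replicate 2, and TAX1BP1 without MC26 replicate 1, MC26 replicate 2 (-0.19) or any M1B26 library. IKBKE was lost without CT replicate 1, CT replicate 3, MC26 replicate 1 (0.19), M1B26 replicate 1 or M1B26 replicate 3, with total counts and with only 6 libraries. IKBKG was lost without CT replicate 1, MC26 replicate 1 (-0.32), MC26 replicate 2 or any M1B26 library, with only 6 libraries (-0.49) and with the replicate block (-0.47). TNFRSF12A was lost without CT replicate 1, MC26 replicate 1 (-0.26), MC26 replicate 2, M1B26 replicate 2 or M1B26 replicate 3 and with only 6 libraries (-0.48).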

How the results depend on the processing

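Calls of RELB, NFKBIZ and TNFAIP3 against CT, of RELA in MC26, and of NFKB2, NFKBIA and NFKBIE in M1B26 held under every setting at an adjusted p under 0.05. Members called numbered 4 to 7 in MC26 against CT, 6 to 7 in M1B26 against CT and 1 to 5 in M1B26 against MC26. The last fell from 4 to 1 at an adjusted p under 0.01 and ranged from 2 to 5 when 1 library was left out, with 2 without MC26 replicate 1 or without M1B26 replicate 3. At an adjusted p under 0.01, 3698 genes changed in MC26 against CT (6081 at 0.05) and 3685 in M1B26 against MC26 (6215 at 0.05).

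Every result whose sign turned was uncalled and close to 0. Scaling by total counts turned NFKB1 (-0.01004 in MC26 and -0.0604 in M1B26), REL (-0.0219), CHUK (-0.0340) and IKBKG (-0.0444) in M1B26 against CT, and RELB in M1B26 against MC26 (-0.0104), which also turned with DESeq2 (-7.57e-04), RLE factors (-2.39e-04) and only 6 libraries (-1.03e-04). Leaving out 1 library gave IKBKB -0.0973 to 0.01004 in MC26 against CT, IKBKG -0.0298 to 0.157, MAP3K14 -0.0884 to 0.0514, NFKB1 -0.0121 to 0.0767 and REL -0.113 to 0.281 in M1B26 against CT, and NFKB1 -0.103 to 0.0293 and RELB -0.0422 to 0.0397 in M1B26 against MC26. The cause was not tested. Total counts shifted the median of all genes by -0.08, -0.09 and -0.02, and 35.8%, 39.6% and 50.5% of called genes were then higher, against 48.5%, 51.5% and 53.5%.

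Equal replicate numbers did not pair the libraries (9 pairs, r from -0.114 to 0.136, 2 above 0.1). With the number as a replicate block, 5 members changed in MC26 against CT, 7 in M1B26 against CT and 4 in M1B26 against MC26, among 5879, 7513 and 6009 genes, and the call of NFKB2 in MC26 was the member call lost (adjusted p = 0.0523). Among the other named genes the block lost the calls of IKBKB in M1B26 against CT (-0.22, adjusted p = 0.0555) and IKBKG in M1B26 against MC26 (-0.47, adjusted p = 0.0510). TNF and the other untested ligands had too few counts to be tested.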
